A study of Mus musculus with 2 samples.

Results

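A group of 10 genes of mucosal defence (Reg1, Tff1, Agr2, Sftpd, Ltf, Lcn2, Wfdc2, Muc1, Pigr and Slpi) were followed in organoids grown from the urothelium (bladder lining) of healthy mice. These genes, of 31053 gene identifiers in the data, were chosen by their measured levels in these same libraries, so the difference between the libraries described for them is a description and not a test. Droplet-based sequencing of single cells (10x Genomics, 3′ ends) gave 1 library of proliferative organoids (P) and 1 of differentiated organoids (D), both from wild-type C57BL/6 mice aged 8 to 10 weeks. P organoids were kept in complete medium with EGF, Noggin, WNT3A, RSPO1 and the TGF-β receptor inhibitor LY2157299, and D organoids were moved from complete medium to a medium without these additions. Organoids were grown from urothelial cells, without sorting unless the study states otherwise. The libraries are thus not read here as models of the immune or stromal cells of the bladder wall.

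Mucosal epithelia keep microbes away from living cells by secreting proteins that kill, bind or starve them, and by limiting the damage done by host proteases. Reg1 encodes a secreted C-type lectin-like protein of the regenerating family, Tff1 a trefoil peptide that works with mucus, and Sftpd surfactant protein D, a collectin that binds microbial sugars. Ltf encodes lactotransferrin, which withholds iron from bacteria, and Lcn2 the lipocalin that captures their siderophores. Wfdc2 and Slpi belong to the whey acidic protein family, of which Slpi inhibits neutrophil serine proteases. Not all members are secreted in the plain sense: Muc1 is a membrane mucin, Pigr the receptor that carries polymeric antibody across the epithelium and is shed with it, and Agr2 a disulfide isomerase of the endoplasmic reticulum that helps secreted proteins fold.

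The filter kept 6818 of 8194 barcodes in P and 4896 of 6975 in D, with 26681469 and 20305621 UMIs (unique molecular identifiers, each marking 1 captured RNA molecule) and medians of 3405.5 and 3227.5 UMIs per cell. With 1 library per condition there was no replicate spread, and all intervals below are exact 95% intervals that cover counting error only, as do the limits given for a count of 0, which use 3 counts. The libraries shared 10 deposited barcodes. Levels are counts per 1000000 UMIs (CPM). On this scale the median gene, of 8939 that reached 100 UMIs in both P and D, was 0.42 higher in D on the log2 scale. All 7 basal and all 6 luminal urothelial markers examined were detected in both libraries. When summed, luminal markers were at 20.8 CPM in P and 1245 in D, and basal markers at 6021 and 8292. The luminal marker Krt20 went the other way, with 8 UMIs in P and 3 in D. Of the basal markers, Krt14 (1783 CPM in P and 3736 in D), Krt5, Itgb4 and Cd44 were higher in D. Trp63 (149 and 77.8), Itga6 (144 and 125) and Col17a1 (242 and 211) were lower in D. Ribosomal protein genes held 37.4% of the UMIs in P and 21.4% in D.

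All members are annotated as protein-coding genes on GRCm38 (GENCODE M21). Reg1 lies at chr6:78422711-78428667 (+), Ltf at chr9:111019271-111042767 (+), Pigr at chr1:130826684-130852249 (+), Slpi at chr2:164354070-164389095 (-) and Wfdc2 at chr2:164562413-164568510 (+). Agr2 lies at chr12:35992907-36004087 (+), Sftpd at chr14:41172214-41185149 (-), Tff1 at chr17:31161395-31165277 (-), Lcn2 at chr2:32384633-32388252 (-) and Muc1 at chr3:89229057-89233381 (+). Slpi contains the microRNA gene Mir7678 on its own strand, and Tff1 overlaps Gm15318 on the opposite strand.

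RefSeq promoter sequences (GRCm38.p6) were found for 8 of the 10 members. The 100 bases before the start site are shown for 4 of them because their patterns are compared below. Ltf and Pigr were highest in the same clusters of cells, Slpi was highest in others, and Reg1 was held by very few cells. Each is written 5′ to 3′ on the gene's strand, with the matches to searched motifs in capitals:

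Reg1, chr6:78425883-78425982 (+): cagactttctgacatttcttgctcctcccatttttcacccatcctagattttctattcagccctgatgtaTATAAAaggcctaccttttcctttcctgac

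Ltf, chr9:111019192-111019291 (+): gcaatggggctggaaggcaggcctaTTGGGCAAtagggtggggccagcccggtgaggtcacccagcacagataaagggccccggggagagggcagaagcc

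Pigr, chr1:130826584-130826683 (+): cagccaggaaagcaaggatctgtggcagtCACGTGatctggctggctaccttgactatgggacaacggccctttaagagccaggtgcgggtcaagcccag

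Slpi, chr2:164356508-164356607 (-): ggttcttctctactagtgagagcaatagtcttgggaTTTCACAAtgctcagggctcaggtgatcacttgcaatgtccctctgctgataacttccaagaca

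Both strands were searched for 4 motifs: the TATA box, spelled TATAAA, the AP-1 motif, spelled TGANTCA, the E-box, spelled CACGTG, and the C/EBP motif, spelled TTNNGNAA. The TATA box of Reg1 starts 30 bases before the RefSeq start site, which lies inside the GENCODE gene and whose following bases were found in no GENCODE transcript of Reg1, and 5.56% of the 32851 promoters in the table hold those letters within the same 100 bases. The E-box of Pigr starts 71 bases before the start, against 3.17% of promoters with one in this window. Ltf and Slpi each hold a C/EBP match, at 75 and 64 bases before the start, which 14.9% of promoters also have. No motif was shared by Ltf and Pigr and absent from Slpi in these windows. These matches describe letters and not bound sites.

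Between the libraries, the members did not move as a block. Reg1, Sftpd, Tff1 and Pigr were higher in D, Slpi was higher in P, and Agr2, Ltf and Wfdc2 differed by less than 2-fold in CPM. In all, 8 members reached 100 UMIs over both libraries. Of these, 4 exceeded 2-fold toward D, as did 13.5% of 10719 genes examined, and 1 exceeded 2-fold toward P, as did 4.73%. The median log2 ratio (D over P) was 1.04 over these 8 members and 0.41 over all of those genes. The members were picked on this contrast, so nothing is read from these counts.

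Reg1 had 2 UMIs in P (0.0750 CPM) and 141 in D (6.94 CPM). The log2 ratio was 6.53, with a counting interval of 4.65 to 9.59 that rests on the 2 UMIs of P. Sftpd had 18 UMIs in P (0.675 CPM) and 168 in D (8.27 CPM), a log2 ratio of 3.62 (2.91 to 4.41). Tff1 had 28 UMIs in P (1.05 CPM) and 173 in D (8.52 CPM), a log2 ratio of 3.02 (2.44 to 3.65). These 3 genes were scarce in P, and in D each stayed under 10 CPM. Pigr, the antibody receptor, had 67 UMIs in P (2.51 CPM) and 318 in D (15.7 CPM), a log2 ratio of 2.64 (2.26 to 3.04).

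Slpi had 569 UMIs in P (21.3 CPM) and 34 in D (1.67 CPM), so that it was 12.7-fold lower in D, a log2 ratio of -3.67 (-4.22 to -3.17). Lcn2 had 41 UMIs in P (1.54 CPM) and 4 in D (0.197 CPM), with a log2 ratio of -2.96 (-4.91 to -1.50), but too few UMIs to enter the counts above. Neutrophils are a known source of Lcn2, Ltf and Slpi. Of 8 neutrophil markers, 5 had no UMI in P and 7 had none in D. S100a9, which epithelia also express, held 95 of the 98 neutrophil-marker UMIs in P. The part of neutrophils in the levels of these 3 members was not tested.

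Wfdc2 was the member with most UMIs in both libraries, 51138 in P (1917 CPM) and 25603 in D (1261 CPM), a log2 ratio of -0.60 (-0.63 to -0.58). Ltf had 1417 UMIs in P (53.1 CPM) and 637 in D (31.4 CPM), a log2 ratio of -0.76 (-0.90 to -0.62). Agr2 had 524 (19.6 CPM) and 269 (13.2 CPM), a log2 ratio of -0.57 (-0.79 to -0.35). These 3 ratios depend on the scale: relative to the median gene they became -1.03, -1.18 and -0.99, so that Wfdc2 and Ltf then passed 2-fold. Muc1 had 5 UMIs in P and 7 in D, too few to say that the libraries differed (log2 ratio 0.88, -0.99 to 2.88).

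**Figure D1:**
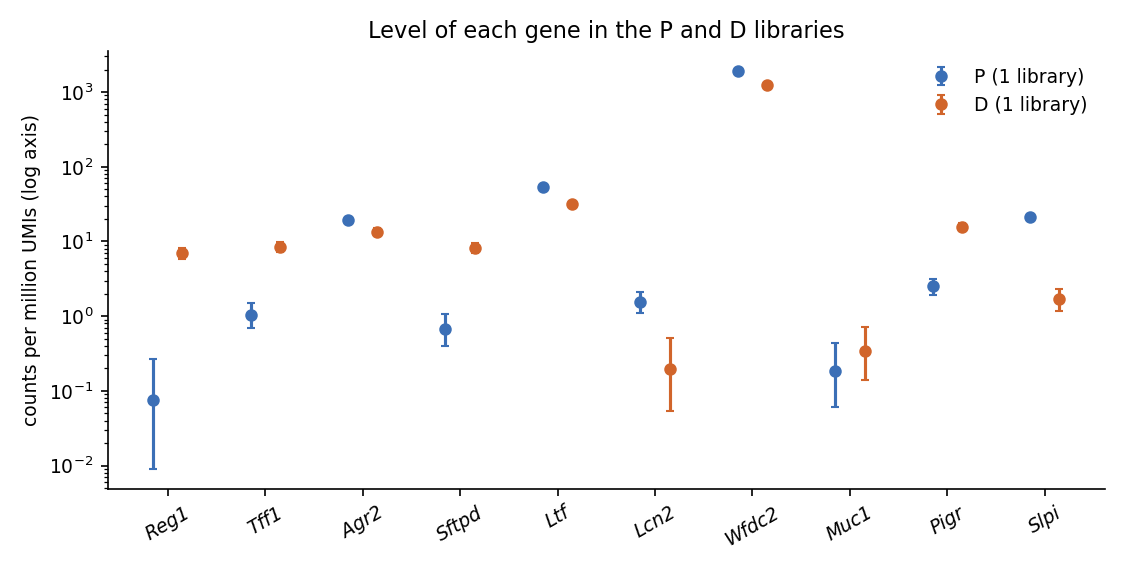
Level of each gene in counts per 1000000 UMIs (vertical log axis) in the P library (blue) and the D library (orange), with exact Poisson 95% intervals for counting error. Slpi and Lcn2 are lower in D, while Reg1, Tff1, Sftpd and Pigr are higher there.

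A level averaged over a library can come from many cells or from a few. To compare detection at equal depth, each cell was thinned to 2100 UMIs, which left 6638 cells in P and 4417 in D. Wfdc2 was detected in 90.4% of P cells (89.7 to 91.1%) and 76.0% of D cells (74.7 to 77.2%). Slpi was detected in 4.52% of P cells (4.03 to 5.05%) and 0.340% of D cells (0.190 to 0.559%). Without thinning these Slpi shares were 7.14% and 0.674%.

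Ltf was found in 4.05% of P cells (3.59 to 4.55%) and 3.67% of D cells (3.13 to 4.26%), and Agr2 in 2.70% (2.32 to 3.12%) and 2.54% (2.09 to 3.04%). For both genes the intervals overlapped, although their CPM was lower in D. Among cells with Ltf, the unthinned mean was 3.49 UMIs in P and 2.32 in D. Pigr was detected in 0.392% of P cells (0.256 to 0.573%) and 2.56% of D cells (2.11 to 3.07%), Sftpd in 0.105% (0.0424 to 0.217%) and 1.61% (1.26 to 2.02%), and Tff1 in 0.0603% (0.0164 to 0.154%) and 1.09% (0.802 to 1.44%). Even in D, each of these 3 genes was thus found in a small minority of cells.

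**Figure D2:**
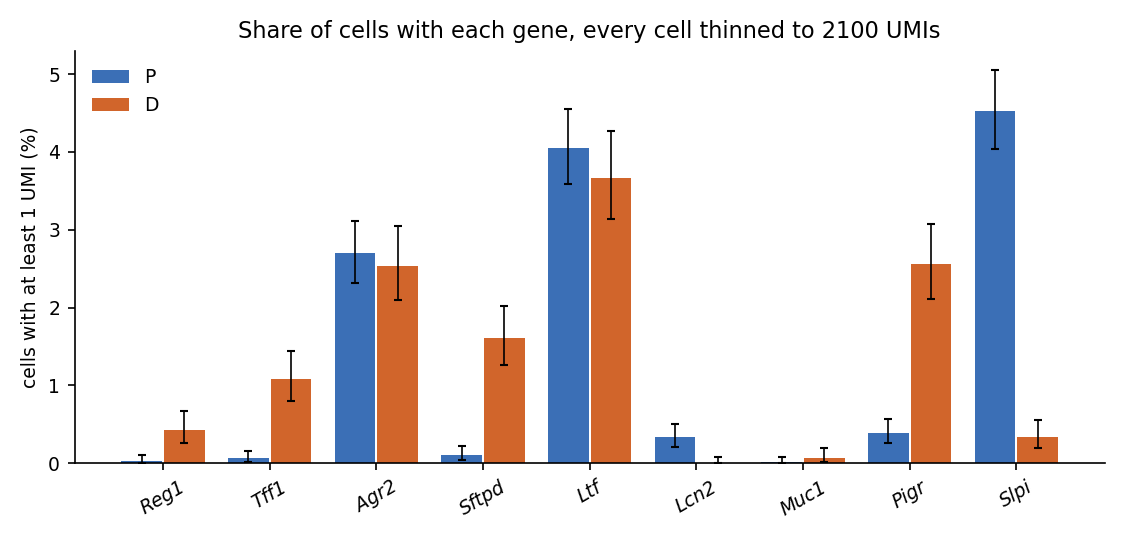
Share of cells with at least 1 UMI of each gene (vertical axis, %) in P (blue) and D (orange) after every cell was thinned to 2100 UMIs, with exact binomial 95% intervals. Wfdc2, detected in 90.4% and 76.0% of cells, is left out so that the other 9 genes can be read.

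The level of Reg1 in D was carried by a few cells. Its 141 UMIs in D came from 27 of 4896 cells, and the 4 cells with the most held 57, 21, 20 and 9 UMIs, or 75.9% of the total. Of the 27 cells, 15 held exactly 1 UMI. The leading cell had 57 Reg1 UMIs among only 2598 in all, together with 15 UMIs of Wfdc2 and 8 of Reg3g, another secreted lectin of the same family that kills Gram-positive bacteria. All 4 cells held Reg3g (8, 1, 5 and 4 UMIs). Over all kept D cells, Reg3g was found in 11 of 27 cells with Reg1 (40.7%, 22.4 to 61.2%) and in 49 of 4869 without it (1.01%, 0.745 to 1.33%). The cells with Reg1 were deeper, with a median of 5438 UMIs against 3220. Without the leading cell of each library, an alternative added after seeing the data, the log2 ratio of Reg1 was 6.79. The P cell left out held 1 of the 2 Reg1 UMIs in P. The rise of the ratio thus rests on 1 UMI and does not show that the level in D is free of its leading cell.

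Tff1 in P was likewise 1 cell. That cell held 25 of 28 UMIs among 2575 in all, together with 46 UMIs of Psca, and had no UMI of Wfdc2, Krt5, Krt14 or the other 9 members. The remaining 3 UMIs lay in 3 cells. In D, the 173 UMIs came from 88 cells, and the cell with the most held 17. Without the leading cell of each library the log2 ratio of Tff1 was 6.09 rather than 3.02, so the level of Tff1 in P, and with it the size of the ratio, was set by 1 cell.

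Other members were spread more evenly. The cell with the most Ltf held 39 of 1417 UMIs in P and 15 of 637 in D. Nevertheless the 69 P cells with the most Ltf, about 1% of the library, held 55.2% of its UMIs, against 26.5% for Slpi and 6.97% for Wfdc2. No P cell had more than 5 UMIs of Slpi.

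**Figure D3:**
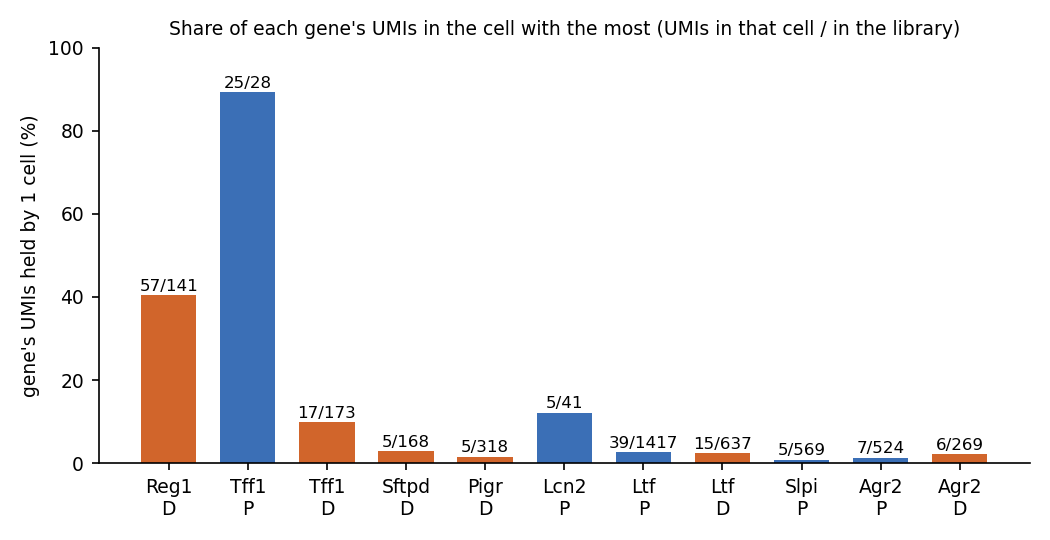
Share of a gene's UMIs (vertical axis, %) held by the kept cell with the most UMIs of that gene, in P (blue) and D (orange), with the UMIs of that cell and of the library above each bar. Tff1 in P (25 of 28) and Reg1 in D (57 of 141) are the highest of those plotted. Reg1, Sftpd and Pigr in P, Lcn2 and Slpi in D, and Muc1 and Wfdc2 in both libraries are left out, by choice and not by a limit on UMIs.

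To locate the members, the cells of each library were clustered without any member or related defence gene among the features. P gave 4 clusters and D gave 3, and clusters are called here by number. P 0 (2610 cells) was led by Nbl1, Dll1 and Dlk2 and had the most Krt14, a basal keratin, at 4110 CPM. P 1 (2517 cells) was led by Cyp2f2, and P 2 (1340 cells) by Sprr2f and Psca, with all 9 intermediate markers raised. In P 2 the 3 luminal markers with at least 20 UMIs and 5 of 8 squamous markers were raised too. P 3 (351 cells) was proliferating-like, with 7 of 12 proliferation markers among its 10 leading genes. In D, D 0 (2733 cells) was led by Krt1, D 1 (1306 cells) by Acta2 and Cav1 with 11265 CPM of Krt14, and D 2 (857 cells) was luminal-like, led by Ppbp, Ly6g6c and Upk3a with all 5 luminal markers that had at least 20 UMIs raised. Median UMIs per cell ran from 2671 in D 1 to 4657 in D 2. Because clusters come from the same cells as the levels, the cluster values are descriptions.

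Slpi and Ltf had opposite places in P. Slpi was highest in P 0 (41.8 CPM, 37.4 to 46.5) and P 3 (37.2, 28.3 to 48.0), whose intervals overlap, and lower in P 1 (10.9) and P 2 (9.61). Ltf ran from 1.38 CPM in P 0 (0.691 to 2.48) to 45.7 in P 1 and 140 in P 2 (131 to 149), a 101-fold range. At equal depth Ltf was found in 0.282% of P 0 cells, with a median of 2836 UMIs before thinning, and in 12.4% of P 2 cells, with a median of 4042. The part of free RNA in the P 0 share was not tested. In D, Ltf was again highest in the luminal-like D 2 (96.2 CPM, 88.0 to 105) and lowest in D 1 (1.22, 0.397 to 2.85).

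Pigr and Sftpd shared this place in D. Pigr was at 33.4 CPM in D 2 (28.6 to 38.8), 12.4 in D 0 (10.4 to 14.7) and 1.95 in D 1. Sftpd was at 27.2 CPM in D 2 (22.9 to 32.1) and 2.45 in D 0 (1.61 to 3.56), with no UMI in D 1, which allows up to 0.733 CPM at 3 counts. In P, Pigr was also highest in P 2, at 7.02 CPM (5.14 to 9.36). Sftpd is best known from lung. All 4 alveolar markers examined, Sftpc, Sftpa1, Sftpb and Napsa, had 0 UMIs in both libraries. Of 4 airway club cell markers, 3 had no UMI in either library, and Scgb1a1 had 48 in P and 52 in D. Reg1 is best known from pancreatic acinar cells and Tff1 and Agr2 from goblet and other mucous cells. Summed over their lists, the 5 acinar markers gave 5 UMIs (P) and 18 (D). The 5 goblet markers gave 66 and 135, mostly of Clca1 (49 and 117), with Spdef at 0 and 1. The part of any of these cell types in the levels of the members was not tested.

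Agr2 had another pattern. It was highest in P 1 (42.3 CPM, 38.5 to 46.4), with 8.24 in P 2 and 1.01 in P 0, and in D it was highest in D 0 (20.2 CPM, 17.6 to 23.0), with 8.31 in D 2 and 0.733 in D 1. Clusters P 1 and D 0 both had Cyp2f2 among their leading genes. Tff1 did not separate D 0 (10.7 CPM, 8.85 to 12.8) from D 2 (10.6, 8.01 to 13.8) and had no UMI in D 1. Reg1 had 126 of its 141 UMIs in D 0, but the 4 leading cells all lay there. Leaving them out was an alternative added after seeing the data. Reg1 was then at 1.72 CPM in D 0 (1.04 to 2.69) and 2.51 in D 2 (1.34 to 4.30). Its higher level in D 0 than in D 2 thus rests on 4 cells. With these 4 cells kept, Reg1 was found at equal depth in 0.472% of D 0 cells and 0.595% of D 2 cells. Lcn2 had 29 of its 41 P UMIs in P 0 and none in P 2. Muc1, at the limit of detection, had 4 of its 5 P UMIs in P 2 and 6 of its 7 D UMIs in D 2.

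Wfdc2 was present in every cluster but not evenly. In P it ran from 1265 CPM in P 0 to 2644 in P 1. In D it was at 1546 CPM in D 0, 1370 in D 2 and 355 in D 1 (337 to 374), a 4.36-fold range. At equal depth the median P cell held 3 Wfdc2 UMIs and the median D cell 2. In D 1, 59.5% of cells had none and the median was 0, whereas in the Krt14-rich P 0 12.1% had none and the median was 2. Clusters were made in each library separately, so P 0 and D 1 are set side by side without being matched.

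**Figure D4:**
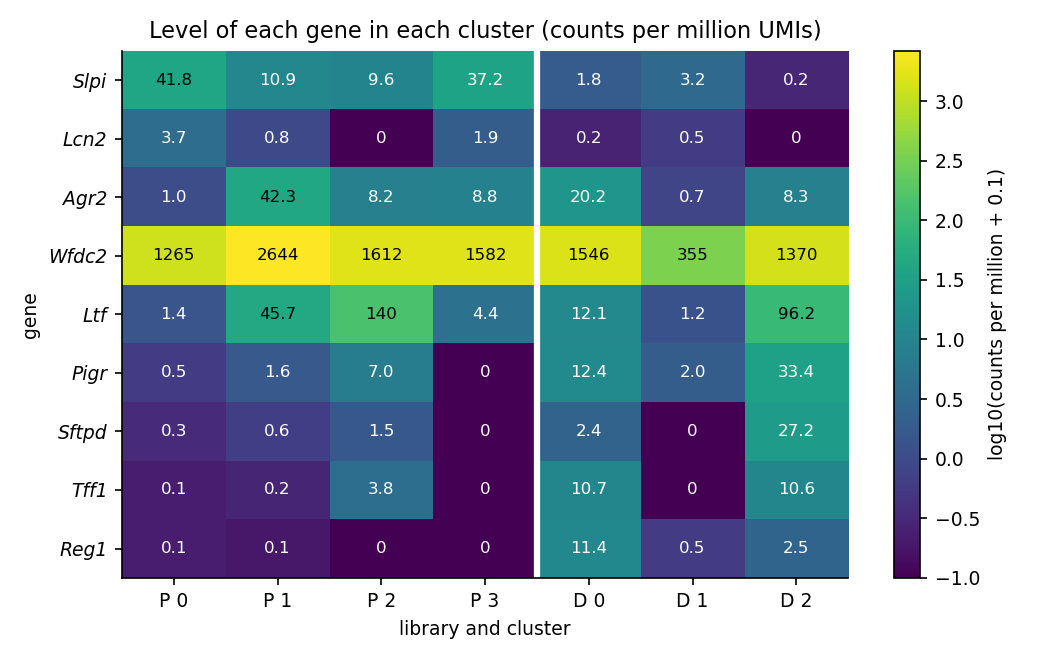
Level of 9 genes (rows) in each cluster of P and D (columns), in counts per 1000000 UMIs, with the value in each field and color on a log10 scale. Ltf is highest in P 2 and, among the D clusters, in D 2. Pigr and Sftpd are highest in D 2, Slpi in P 0 and P 3, Agr2 in P 1 and D 0, and Wfdc2 is lowest in D 1. Muc1, with 12 UMIs in all, is left out.

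Uroplakins are membrane proteins of the urothelial surface. Cells with at least 1 UMI of the 5 uroplakin genes numbered 303 of 6818 in P and 2849 of 4896 in D. In D, the log2 ratio of level in uroplakin-positive over uroplakin-negative cells was 4.34 for Reg1 (2.76 to 6.63), or 2.18 (0.50 to 4.54) without its 4 leading cells, 2.79 for Sftpd (1.88 to 3.88), 2.60 for Ltf (2.15 to 3.08) and 2.36 for Pigr (1.77 to 3.01). These were the 4 of 7 members with enough UMIs in D that were at least 2-fold higher in positive cells, where 3.73% of 9398 genes were. None of these 7 was at least 2-fold higher in negative cells, where 3.27% of genes were. The members were picked by their levels in these same libraries, so nothing is read from these counts either. The other members had few UMIs in D: the log2 ratio was -0.85 for Slpi (-1.90 to 0.23, and -2.32 in thinned cells), -2.77 for Lcn2 (-8.49 to 0.87) and 1.40 for Muc1 (-1.65 to 6.92). The ratio was 0.89 for Wfdc2 and 0.77 for Agr2, and for Tff1 the interval included 0 (0.45, -0.06 to 0.99). In P, Sftpd (4.55, 3.05 to 6.16), Pigr (3.06, 2.27 to 3.81) and Ltf (2.91, 2.75 to 3.07) were also higher in positive cells, while Slpi was lower (-0.74, -1.42 to -0.12, and -2.11 in thinned cells or -1.57 without the 5% of cells with the most UMIs). Positive cells were deeper, with medians of 3714 against 2696 UMIs in D, and the part of depth in these ratios was not tested beyond thinning, which gave 1.98 for Ltf and 0.67 for Wfdc2 in D.

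Co-detection in single cells was scarce, since all members but Wfdc2 were detected in few cells. At equal depth, 1 member was detected in 80.6% of P cells and 67.6% of D cells, and none in 8.68% and 22.7%. At least 3 members were found in 36 P cells (0.542%, 0.380 to 0.750%) and 47 D cells (1.06%, 0.783 to 1.41%). With another random thinning the D share was 0.770%, so its size is uncertain beyond the counting interval. The most frequent sets were Agr2 with Ltf and Wfdc2 in P (14 cells) and Ltf with Wfdc2 and Pigr in D (8 cells). Of the 47 D cells, 28 were in D 2, 19 in D 0 and none in D 1. One D cell held 5 members, Reg1, Sftpd, Ltf, Wfdc2 and Pigr.

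Pairs were examined where both genes were detected in at least 50 thinned cells, 6 pairs in P and 10 in D. In D, Ltf was found in 10 of 71 cells with Sftpd (14.1%, 6.97 to 24.4%) and in 3.50% of cells without it. Pigr was found in 9 of these 71 cells (12.7%, 5.96 to 22.7%) against 2.39% of the others. Pigr was also found in 12 of 162 cells with Ltf (7.41%, 3.89 to 12.6%) against 2.37%. Each pair of Ltf, Pigr and Sftpd was thus detected together more often in D as a whole. Within D 2 these shares no longer separated: Ltf was in 16.7% of cells with Sftpd and 13.2% of those without, Pigr in 11.1% of cells with Sftpd and 6.23% without, and Pigr in 8.85% of cells with Ltf and 6.19% without, with overlapping intervals. Of the pairs examined within D 2, Ltf with Wfdc2 stayed apart (Wfdc2 in 89.4% of cells with Ltf, 82.2 to 94.4%, against 78.7%, 75.5 to 81.6%).

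Agr2 and Sftpd were not found in the same thinned D cell. None of 112 cells with Agr2 held Sftpd, which allows up to 2.68% at 3 counts, and 1.65% of cells without Agr2 did, so exclusion could not be told at this depth. Wfdc2 was detected in 94.6% of D cells with Agr2 (88.7 to 98.0%) against 75.5% without, and in 98.9% of P cells with Agr2 (96.0 to 99.9%) against 90.2%. Within D 0 the intervals overlapped (95 of 100 cells with Agr2 against 88.8% of those without), and within P 1 they did not (150 of 152 cells with Agr2 against 94.1%). In P, Slpi was found in 3 of 179 cells with Agr2 (1.68%, 0.347 to 4.82%) and in 4.60% of those without, and in 1.86% of cells with Ltf against 4.63%, and these intervals overlapped. Ltf was found in 7.82% of P cells with Agr2 (4.34 to 12.8%) and 3.95% of those without (3.49 to 4.45%), also with overlapping intervals.

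**Figure D5:**
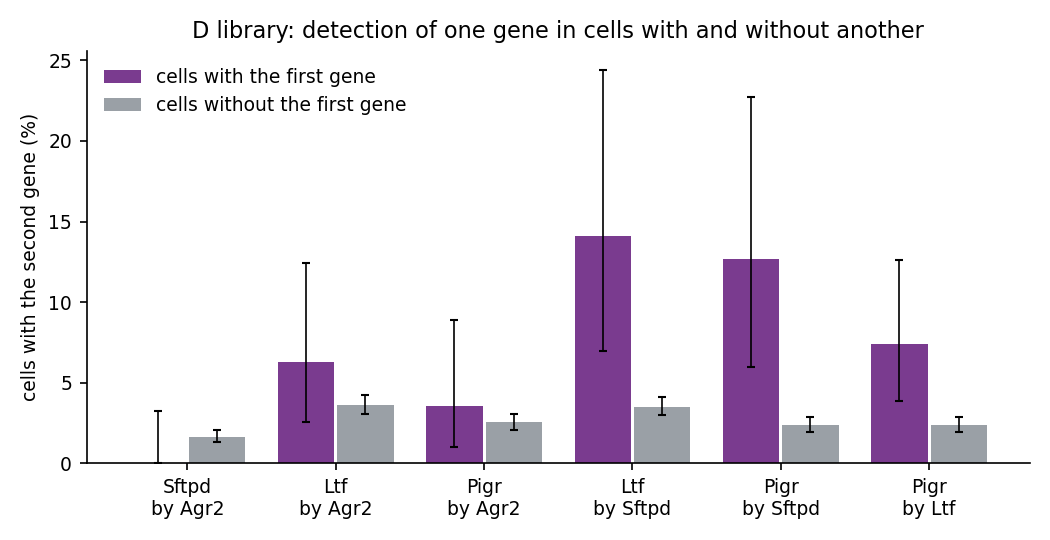
Share of thinned D cells with the upper gene of each label (vertical axis, %) among cells with (purple) and without (grey) the lower gene, with exact binomial 95% intervals. The purple bars of Ltf by Sftpd, Pigr by Sftpd and Pigr by Ltf lie above the grey ones without overlap of the intervals, and the bar of Sftpd by Agr2 is at 0.

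The genes whose pattern over single cells was most like that of a member were named by Pearson correlation of log-normalized levels over the 6818 P or 4896 D cells, which share a library, depth and cell composition. Agr2 was most like Ccr2 in P (r = 0.27) and Cyp2f2 in D (r = 0.20), and Ltf like Psca in P (r = 0.34) and Ppbp in D (r = 0.35). Slpi in P was most like Krt14 (r = 0.16) and Pigr in D like the uroplakin Upk1a (r = 0.19). Wfdc2 was most like the mitochondrial transcript mt-Cytb in P (r = 0.40) and the glutathione transferase Gsta4 in D (r = 0.55). These values are descriptions.

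Other genes of epithelial defence were taken from lists of 109 genes, of which 33 had no UMI and 33 reached 100 UMIs over both libraries. Of the latter, 10 passed 2-fold toward D and 2 toward P, with a median log2 ratio of 0.42, beside 13.5%, 4.73% and 0.41 over all genes examined. Among the antimicrobial and acute phase proteins, Clu, a secreted chaperone, had 39.4 CPM in P against 1325 in D (log2 ratio 5.07). Defb1, a beta-defensin, was at 98.8 and 204 CPM, and Pglyrp1, which binds bacterial cell wall, at 54.4 and 9.41 CPM (log2 ratio -2.53). Reg3g went from 1 UMI to 131 (log2 ratio 7.43, 4.92 to 12.7).

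Related members of the same families were often absent. Of 14 other whey acidic protein genes, 9 had no UMI and none reached 100, with Wfdc15b highest at 14 UMIs in P and 77 in D. Tff2 had no UMI in P and 14 in D, and Tff3 none in either. Among mucins, Muc15 was the gene with the most UMIs (311 in P, 102 in D, log2 ratio -1.21), and the gel-forming Muc2 had 8 and 7. Among lectins, Lgals4 had 2.25 CPM in P against 30.5 in D (log2 ratio 3.76), and the log2 ratio of Lgals3 was 0.45. Among iron-handling genes, Slc40a1, the iron exporter, had 4.27 CPM in P against 32.9 in D (log2 ratio 2.95), while the log2 ratio of Fth1, the ferritin heavy chain, was -0.33.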

How the data were processed

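Per the labels and the study's methods, the authors processed reads with bcl2fastq 2.19.0 and Cell Ranger 3.0.2 against GRCm38 and deposited counts of UMIs per gene and barcode, with no normalization. From these counts, cells were kept by the filter that the study states, more than 800 genes and no more than 12% mitochondrial UMIs. The study's own number of P cells matches at least 800 genes, which keeps 6826 rather than 6818. CPM were computed from UMIs summed over kept cells. Exact Poisson, Clopper-Pearson and conditional binomial intervals (95%) were used, and a gene counted as higher at 2-fold with at least 100 UMIs over both libraries. No test was made with 1 library per condition. Shares used cells thinned to 2100 UMIs. Doublets were not called, and the 5% of cells with most UMIs were left out as an alternative. Clusters came from Seurat 5.3.0 (R 4.3.3, resolution 0.2, 1976 features left after removing 24 defence genes). Named genes were the members, their 3 most like genes and the 3 highest genes of each list. Muc2, Krt20, the single basal markers, Scgb1a1, Dcn, Laptm5, Ptprc and the leading cluster genes were named after their values were seen. Members and lists were chosen with earlier results of these data known.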

Additional observations from a re-analysis of the deposited data

Results flagged for a closer look

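Of the members, 8 had over 3 UMIs in the 1376 barcodes left out of P and 7 in the 2079 left out of D, which entered the comparisons of the report under alternative filters alone. In P these were 2790 UMIs of Wfdc2, 205 of Ltf, 41 of Slpi, 17 of Agr2, 9 of Pigr, 8 of Tff1, 4 of Sftpd and 4 of Lcn2. In D these were 1372 of Wfdc2, 79 of Ltf, 47 of Pigr, 13 of Agr2, 11 of Reg1, 5 of Tff1 and 4 of Sftpd. Per 1000000 non-mitochondrial UMIs, Ltf in P was at 103 in left-out barcodes (89.3 to 118) and 56.4 in kept cells, while Wfdc2 in D was at 662 (628 to 698) and 1358. Slpi had no UMI in the barcodes left out of D.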

How the results depend on the processing

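No library was repeated, so no result has a replicate check and no replicate could be left out. The count of members higher in D stayed at 4 under every scaling, filter and fold tried. The count higher in P, 1 as given, was 2 without mitochondrial and ribosomal protein genes and 3 under median ratio scaling or at 1.5-fold. The median log2 ratio over members was 0.70 without mitochondrial and ribosomal protein genes and 0.61 under median ratio scaling. Of 90 single-gene ratios under alternatives, 79 stayed within their counting interval and 11 moved, none with a change of sign. For single genes, 89 shares of cells stayed within their interval and 51 moved. Of the uroplakin ratios 36 stayed and 12 moved, and of the cluster ranges 22 stayed and 6 moved. The share of cells with at least 3 members was 1.85% in P and 3.00% in D without thinning, 0.147% and 0.245% when thinned to 1000 UMIs, and 0.0603% and 0.0226% when 2 UMIs were required. In D it was 0.770% with another random seed, 0.719% without the 5% of cells with the most UMIs and 0.608% under the stricter filter. The pairs detected together more often numbered 1 in P and 5 in D. Without thinning they numbered 3 and 10, and with at least 2 UMIs 0 and 1. In P they numbered 2 with another seed, without the top 5% of cells and under the looser filter. In D they numbered 2 when thinned to 1000 UMIs, 3 without the top 5% and under the stricter filter, and 1 within clusters. The cause was not tested. Genes under about 100 UMIs, such as Lcn2 and Muc1, are limited by depth.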

Other observations

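Reg3b, a close relative of Reg3g, had 11 UMIs in D and none in P, all 11 in 1 cell, which also held Reg1. Tff1 in D overlapped with other members: Agr2 and Ltf were each found in 14 of 88 cells with Tff1 (15.9%, 8.98 to 25.2%), against 4.22% and 5.43% of the 4808 cells without it, in unthinned cells with medians of 4375 and 3211.5 UMIs. The part of depth in this was not tested. Tff1 and Reg1 shared 1 cell. The mucin Muc16 was found in 3 of the 88 cells with Tff1 and in 24 of the others. Laptm5, from the leukocyte list, had 7 UMIs in P and 400 in D, while Ptprc had 1 and 2. The 5 fibroblast markers gave 46 UMIs in P and 1269 in D, mostly of Dcn (40 and 1234). The part of leukocytes or fibroblasts in the levels of the members was not tested.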
